A study of Mus musculus with 6 samples.

Results

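The genes described here encode ion channels and neurotransmitter receptors of the mouse brain. They were chosen by name: a gene entered when its single symbol in the platform annotation begins with the stem of a channel or receptor family (Kcn, Cacn, Scn, Hcn, Clcn, Trp with c, m or v, Gria, Grin, Grik, Grid, Grm, Gabr, Glra, Chrn, Chrm, P2rx, Htr, Drd or Adra). The rule found 78 of the 6214 genes with a single symbol on the array, measured by 107 probes, and used no measured value. Total RNA from the brains of 9-week-old males was compared on 6 two-colour BMAP cDNA arrays. Each array set mice given naloxone, which blocks opioid receptors (RNA labelled with Cy5), against mice given saline (Cy3), both 10 min after treatment. NY1DD mice, a transgenic line that models sickle cell disease, filled 3 arrays, and C57BL/6J mice filled the other 3. NY1DD and C57BL/6J mice are thus set against each other only through the naloxone over saline ratio, and no array compares NY1DD with C57BL/6J RNA directly.

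Ion channels set how easily a neuron fires. Voltage-gated sodium, calcium and potassium channels carry the action potential and its repolarisation, HCN channels pace rhythmic firing, and inward rectifier and tandem-pore potassium channels hold the resting potential. Transmitter receptors either contain a channel (AMPA, NMDA and kainate receptors for glutamate, GABA-A receptors, nicotinic receptors for acetylcholine, P2X receptors for ATP) or act through G proteins (metabotropic glutamate, muscarinic, dopamine, serotonin and adrenergic receptors). Opioid receptors, the targets of naloxone, are G protein-coupled receptors that open inward rectifier potassium channels and restrain presynaptic calcium channels in neurons. Those actions are on channel proteins, whereas the arrays measure transcripts.

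Values are given as log2 ratios, so that 1 stands for a doubling, and their likely direction is naloxone over saline. The numerator is not stated in the sources used here, and in the reverse case every sign turns. The labels do not say that the arrays come from separate animals, so the spread between arrays may be technical. An unexplained number in the sample titles is shared by C57BL/6J replicates 1 and 2 and by no NY1DD array; if it marks a batch, strain and batch cannot be told apart. The dyes were not swapped, so naloxone and any shared dye bias cannot be told apart in a strain mean, whereas that bias drops out when the strains are subtracted. The arrays held 11155 to 11413 usable probes each, and their pairwise Pearson correlation across features, which are not independent replicates, ran from -0.0701 to 0.191. Ratios hold no level, so the tissue label could not be checked against marker levels: 11 of 11 neuron markers were on the array, against 0 of 7 red cell markers. RNA came from bulk tissue, in which fewer cells of a type and less RNA per cell cannot be told apart.

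Of the 78 genes, 77 were tested. Grik1, a kainate receptor subunit, was not, because its only probe was empty or at the lower limit of the deposited values on most arrays. Values on all 6 arrays were available for 76 genes; Hcn2 has none on NY1DD replicate 2, and its NY1DD mean rests on 2 arrays. By role, 28 of the tested genes encode voltage-gated channels or their auxiliary subunits, 25 encode transmitter receptors and 20 encode other channels or channel partners. The remaining 4 entered by spelling only: Htra1, Htra2 and Htra3 are serine proteases and Trpc4ap is a protein that binds a TRP channel. Their NY1DD means ran from -0.15 to 0.11 and their C57BL/6J means from -0.16 to -0.01, and they are left out of the groups.

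No channel or receptor gene passed the test in either strain. Limma with Benjamini-Hochberg adjustment over 9685 features called 0 of the 77 genes in NY1DD, in C57BL/6J, in the difference between strains and in the average of the strains, as it called 0.0% of all features in each. At an unadjusted p under 0.05 the counts were 5 of 77 genes in NY1DD (6.49%, against 8.36% of all features), 3 in C57BL/6J (3.9%, against 6.95%), 2 in the difference (2.6%, against 4.5%) and 9 in the average (11.7%, against 10.8%). Each share of the genes was thus near or below that of the whole array. In NY1DD 35 genes had a positive mean and 42 a negative one, with a median of -0.02, which is also the median of all features. C57BL/6J gave the same split, 35 and 42, with a median of -0.04 against -0.0014 for all features.

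Agreement between arrays was no more frequent among these genes than elsewhere in NY1DD. Of the 76 genes with full values, 10 were positive on all 3 NY1DD arrays (13.2%, against 13.6% of all features) and 9 were negative on all 3 (11.8%, against 14.9%). On the C57BL/6J arrays 13 were positive throughout (17.1%, against 14.1%) and 14 negative throughout (18.4%, against 17.2%). The median SD over the 3 arrays was 0.37 in NY1DD and 0.19 in C57BL/6J, beside 0.32 and 0.25 for all features. The median 95% interval of a strain mean reached 0.46 to either side, a factor of 1.37, and that of the difference 0.65, a factor of 1.56. The whole interval lay within a 1.5-fold change for 33 genes in NY1DD, 40 in C57BL/6J and 10 in the difference. For the other genes a change of that size was thus not bounded by these arrays. Of all 9685 features, the interval lay within that range for 4150 in NY1DD, 4491 in C57BL/6J and 1376 in the difference.

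**Figure D1:**
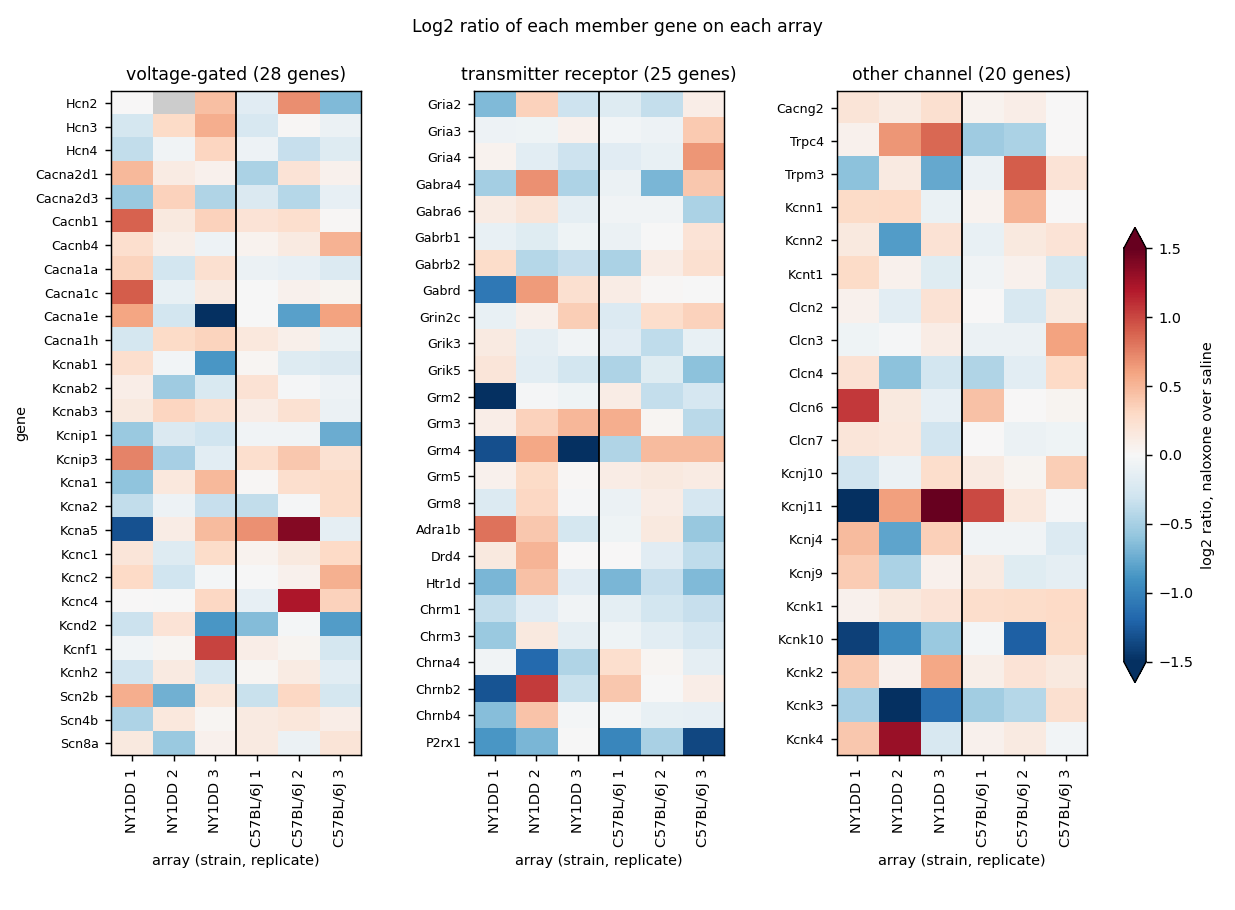
Log2 ratio of naloxone over saline for each gene (rows) on each array (columns: NY1DD replicates 1 to 3, then C57BL/6J replicates 1 to 3), in 3 panels for the 28 voltage-gated, 25 transmitter receptor and 20 other channel genes. Colours run from blue (negative) to red (positive) and saturate at a log2 ratio of 1.5, so the 4.08 of Kcnj11 on NY1DD replicate 3 is drawn at the end of the scale; the grey cell is the missing value of Hcn2.

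Transmitter receptor genes had lower median ratios than voltage-gated channel genes on 5 of the 6 arrays. The medians of the voltage-gated genes were 0.06, -0.001 and 0.10 on NY1DD replicates 1, 2 and 3, and 0.0041, 0.08 and -0.08 on the C57BL/6J arrays. Those of the transmitter receptor genes were -0.11, 0.19 and -0.07 in NY1DD and -0.09, -0.08 and -0.12 in C57BL/6J. Receptor minus channel medians were therefore -0.17, 0.19 and -0.17 in NY1DD, and -0.09, -0.16 and -0.04 in C57BL/6J. NY1DD replicate 2 alone ran the other way, and the NY1DD mean of the 3 differences was -0.05 with an SD of 0.21, smaller than its spread. In C57BL/6J the mean difference was -0.09 with an SD of 0.06. Well position on the plates from which the probes were printed took up 27% of the variance on NY1DD replicate 2, against 3.29% to 11% on the other arrays. After subtraction of well row and column medians the differences were -0.16, 0.12 and -0.18 in NY1DD and -0.07, -0.15 and -0.13 in C57BL/6J, with the same signs as before.

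Counted by the sign of each gene's strain mean, the groups were divided as follows. In NY1DD 14 voltage-gated genes had a positive mean and 14 a negative one (median 0.01), whereas 7 transmitter receptor genes were positive and 18 negative (median of the gene means -0.10, whereas the array medians averaged 0.002 with an SD of 0.17). C57BL/6J gave 14 and 14 for the voltage-gated genes (median 0.02), and 10 and 15 for the receptors (median -0.09). Within the receptors, the 15 channel-forming subunits gave 2 positive and 13 negative means in NY1DD (median -0.10) and 7 and 8 in C57BL/6J (median -0.04). The 10 G protein-coupled receptors gave 5 and 5 in NY1DD (median -0.05), and 3 and 7 in C57BL/6J (median -0.16). So the larger share of negative means was among channel-forming receptors in NY1DD and among G protein-coupled receptors in C57BL/6J. Of all 9685 features, 5089 had a negative mean in NY1DD and 4873 in C57BL/6J. On the NY1DD arrays 5, 7 and 3 of the 15 channel-forming genes were positive. On the C57BL/6J arrays 4, 5 and 2 of the 10 G protein-coupled genes were positive. The difference between those patterns was not tested. The 20 other channel genes were divided 13 to 7 in NY1DD (median 0.03) and 11 to 9 in C57BL/6J (median 0.05). In the difference between strains the medians of the gene means were -0.08 for voltage-gated genes, -0.0013 for receptors and 0.06 for other channels. Subtracting the strain means of the array medians instead gave 0.05 for voltage-gated genes and 0.10 for receptors, so the sign of the voltage-gated value depends on how the genes are summarised.

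**Figure D2:**
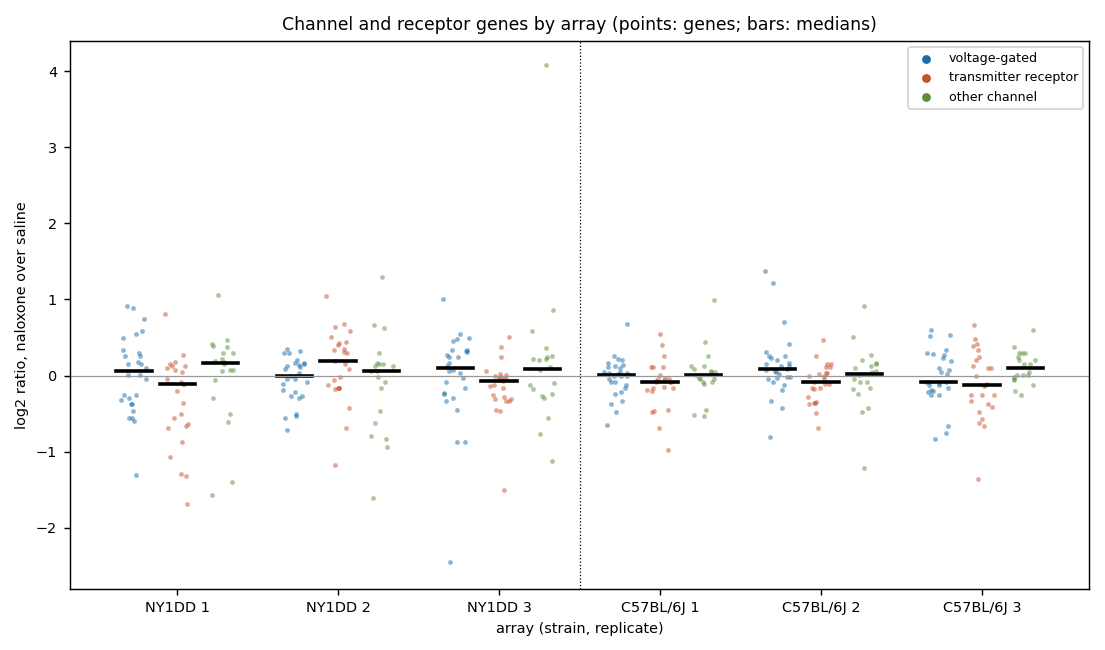
Log2 ratio of naloxone over saline (vertical axis) of every gene on each of the 6 arrays (horizontal axis), with a point per gene, colours for the 3 groups and a black bar at each group's median. The bar of the transmitter receptor genes lies below that of the voltage-gated genes on every array except NY1DD replicate 2, where the receptor median is 0.19.

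Among voltage-gated channels, the potassium channel pore genes were split in both strains. Of the 9 measured, 4 had positive and 5 negative means in NY1DD (median -0.01), and 5 and 4 in C57BL/6J (median 0.17). Kcna1, which encodes a low-threshold Shaker-type channel of axons, read -0.60, 0.16 and 0.49 in NY1DD and 0.02, 0.25 and 0.27 in C57BL/6J. Its NY1DD arrays fell on both sides of 0, with a mean of 0.02 (SE 0.21). The C57BL/6J values were all positive as averages over probes, with a mean of 0.18 (SE 0.21). On C57BL/6J replicate 3 a single probe at 1.8 made the average positive, beside -0.4, -0.25 and -0.07 for the others. That probe had no value on NY1DD replicate 2. Kcnd2, the pore of the transient A-type current in dendrites, read -0.32, 0.21 and -0.87 in NY1DD and -0.65, -0.03 and -0.84 in C57BL/6J. All C57BL/6J values of Kcnd2 were negative, although replicate 2 lay next to 0, and the mean was -0.51 (SE 0.24, limma adjusted p = 0.775). Kcna5 had the widest range of this family, from -1.31 on NY1DD replicate 1 to 1.38 on C57BL/6J replicate 2.

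The auxiliary subunits of potassium channels gave 2 positive and 3 negative means in NY1DD and 3 and 2 in C57BL/6J. Kcnab3, a cytoplasmic beta subunit, was positive on all NY1DD arrays at 0.15, 0.32 and 0.24 (mean 0.24, SE 0.13, limma adjusted p = 0.628). Kcnip3, a calcium sensor that binds A-type channels and is also known as a transcriptional repressor, read 0.25, 0.41 and 0.23 on the C57BL/6J arrays. Its NY1DD values of 0.74, -0.50 and -0.16 surrounded the C57BL/6J range, and the means were 0.30 (SE 0.23) in C57BL/6J and 0.03 (SE 0.23) in NY1DD. Kcnip1, its relative among the A-type channel partners, was negative on 6 of 6 arrays, from -0.75 to -0.05, with an average of -0.32 over both strains (SE 0.13, limma adjusted p = 0.438).

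Calcium channel genes had 6 positive means among 8 in NY1DD, namely 3 of 4 pore genes and 3 of 4 auxiliary genes. In C57BL/6J 2 of 4 pore genes and 2 of 4 auxiliary genes had positive means. Of all 9685 features, 4596 had a positive mean in NY1DD and 4812 in C57BL/6J. Cacna1a encodes the P/Q-type pore of presynaptic terminals, a known target of opioid receptor signalling. It read 0.33, -0.27 and 0.24 in NY1DD and -0.09, -0.12 and -0.20 in C57BL/6J. The C57BL/6J values were all negative but lay inside the NY1DD range, with means of 0.10 (SE 0.16) in NY1DD and -0.14 (SE 0.16) in C57BL/6J. Cacnb1, a cytoplasmic beta subunit that brings the pore to the membrane, was positive on all 6 arrays. Its values were 0.89, 0.15 and 0.34 in NY1DD and 0.21, 0.25 and 0.02 in C57BL/6J. The NY1DD mean was 0.46 (SE 0.17, limma adjusted p = 0.580) and rested in part on replicate 1, without which it was 0.24. Cacnb4, the beta subunit best known from the cerebellum, read 0.05, 0.13 and 0.52 in C57BL/6J, with a mean of 0.23 (SE 0.15) that was 0.09 without replicate 3. Cacna1e, an R-type pore gene chosen for mention after its values were seen, read -2.45 on NY1DD replicate 3, against 0.59 and -0.27 on the other NY1DD arrays.

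Sodium and HCN channel genes lay close to 0. Scn8a, the pore of the axon initial segment, and the beta subunits Scn2b and Scn4b had NY1DD means from -0.11 to -0.0046 and C57BL/6J means from -0.09 to 0.14. All 3 sodium channel genes differed in sign between NY1DD arrays. In NY1DD the means of Hcn2, Hcn3 and Hcn4 were 0.23, 0.19 and -0.03, and in C57BL/6J they were -0.04, -0.10 and -0.20. Their differences between strains, 0.27, 0.29 and 0.17, had SEs of 0.43, 0.25 and 0.23, and all 3 intervals of the difference include 0.

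Tandem-pore potassium channels, which carry the background current of resting neurons, held the most negative NY1DD means of all 77 genes. Kcnk3, an acid-sensitive member, read -0.50, -1.61 and -1.13 in NY1DD and -0.52, -0.43 and 0.24 in C57BL/6J. All NY1DD arrays were negative, but replicate 1 lay among the C57BL/6J values. The NY1DD mean was -1.08 (SE 0.24), a ratio 2.11-fold below 1, and its limma adjusted p of 0.489 was the smallest of the channel and receptor genes in that comparison. Kcnk10, a lipid- and stretch-gated member, read -1.40, -0.94 and -0.56 in NY1DD and -0.03, -1.22 and 0.29 in C57BL/6J. Its NY1DD mean was -0.97 (SE 0.30, limma adjusted p = 0.528), and C57BL/6J replicate 2 lay within the NY1DD values while the other C57BL/6J arrays lay above them, with a C57BL/6J mean of -0.32. Kcnk2, the closest relative of Kcnk10 in gating, went the other way: it read 0.39, 0.06 and 0.58 in NY1DD and 0.09, 0.20 and 0.15 in C57BL/6J. Kcnk1, a weakly conducting member, was also positive on all 6 arrays, at 0.06, 0.15 and 0.21 in NY1DD and 0.26, 0.27 and 0.30 in C57BL/6J. Of the 5 tandem-pore genes, 3 thus had positive and 2 negative NY1DD means, and 0 passed the test.

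Among the genes named by rule, plate column 12 was the source of the probes for Kcnk3, Kcnk2 and the nicotinic subunit gene Chrna4. Column 12 supplied 11 of the 107 channel and receptor probes (10.3%) and 8.32% of the whole array. Whether values from this column differ from those of other columns was not tested. On NY1DD replicate 2, the array with the strongest well pattern, Kcnk3 had its lowest value. After the well position correction the NY1DD means were -0.98 for Kcnk3, 0.49 for Kcnk2 and -0.51 for Chrna4, beside -1.08, 0.34 and -0.56 without it. Kcnk10 lies in column 4 and moved from -0.97 to -1.03. Without NY1DD replicate 2 the mean of Kcnk3 was -0.81.

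Inward rectifier genes included Kcnj9, a subunit of the G protein-gated potassium channel that opioid receptors open. It read 0.38, -0.47 and 0.07 in NY1DD and 0.13, -0.18 and -0.13 in C57BL/6J. Both strains had values on either side of 0, and the means were -0.01 (SE 0.19) and -0.06 (SE 0.19). Kcnj3 and Kcnj6, which encode its usual partners, were not measured here. Kcnj10, the inward rectifier of astrocytes, had means of -0.04 and 0.18, and Kcnj4 had 0.01 and -0.10. Kcnj11, the pore of the ATP-sensitive channel, was chosen for mention after its values were seen: it read -1.57, 0.62 and 4.08 on the NY1DD arrays, the widest range of any channel or receptor gene, against 0.99, 0.16 and -0.02 in C57BL/6J.

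The calcium- or sodium-activated potassium channel genes Kcnn1, Kcnn2 and Kcnt1 had NY1DD means of 0.16, -0.15 and 0.05. Kcnn1, a channel of the afterhyperpolarisation, was positive on the C57BL/6J arrays at 0.05, 0.51 and 0.0046, so its mean of 0.19 (SE 0.16) came mostly from replicate 2, without which it was 0.03. The 5 chloride channel and transporter genes (Clcn2, Clcn3, Clcn4, Clcn6 and Clcn7) had NY1DD means from -0.22 to 0.36 and C57BL/6J means from -0.10 to 0.16. Cacng2, which encodes stargazin, the protein that carries AMPA receptors to the synapse, was positive on 6 of 6 arrays. It read 0.19, 0.12 and 0.24 in NY1DD and 0.05, 0.10 and 0.01 in C57BL/6J, with means of 0.18 (SE 0.12) and 0.05 (SE 0.12). These values average 2 probes, of which 1 was negative on every C57BL/6J array, at -0.14, -0.11 and -0.11.

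TRP channel genes were represented by Trpc4 and Trpm3. Trpc4, a calcium-permeable channel opened downstream of G protein-coupled receptors, read 0.07, 0.66 and 0.86 in NY1DD and -0.53, -0.48 and 0.0018 in C57BL/6J. All NY1DD values lay above all C57BL/6J values, by a gap of less than 0.1 between the nearest arrays. Trpm3, a heat- and steroid-sensitive channel, had the opposite order of means, -0.42 in NY1DD and 0.34 in C57BL/6J (each SE 0.25), and its arrays overlapped.

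Among channel-forming receptors, the ATP-gated P2rx1 had the most negative C57BL/6J mean of the 77 genes. It read -0.98, -0.49 and -1.36 in C57BL/6J and -0.87, -0.69 and -0.0032 in NY1DD. The value of NY1DD replicate 3 stood next to 0, and the other 5 arrays were all below -0.4. The C57BL/6J mean was -0.94 (SE 0.23), a ratio 1.92-fold below 1, with a limma adjusted p of 0.272, the smallest of the channel and receptor genes in that comparison. The NY1DD mean was -0.52 (SE 0.23, limma adjusted p = 0.588), and the C57BL/6J mean changed to -1.06 after the well position correction. P2X receptors of this type are known from smooth muscle and platelets as well as from neurons.

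Nicotinic subunit genes had negative NY1DD means in 3 of 3 cases and negative C57BL/6J means in 1 of 3, and they differed between arrays. Chrna4, which with Chrnb2 forms the main high-affinity nicotine receptor of the brain, read -0.05, -1.17 and -0.45 in NY1DD and 0.25, 0.03 and -0.14 in C57BL/6J. Its NY1DD mean of -0.56 (SE 0.22, limma adjusted p = 0.580) became -0.25 without replicate 2. Chrnb2 did not follow its partner: it read -1.29, 1.05 and -0.33 in NY1DD, so that on replicate 2 the subunits of the same receptor stood at opposite ends. Chrnb4 had means of -0.08 and -0.09.

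Glutamate-gated channel genes had 5 of 6 means negative in NY1DD, where 5089 of all 9685 features were negative. Of these means, those of Gria3 (-0.03, SE 0.15) and Grik3 (-0.02, SE 0.13) lay next to 0. In C57BL/6J negative means numbered 1 of 3 for AMPA, 2 of 2 for kainate and 0 of 1 for NMDA receptor genes. Gria2, the AMPA receptor subunit that limits calcium entry, read -0.66, 0.34 and -0.31 in NY1DD and -0.19, -0.36 and 0.10 in C57BL/6J. The strains overlapped, with means of -0.21 (SE 0.21) and -0.15 (SE 0.21), and without NY1DD replicate 1 the former was 0.01. Gria3 and Gria4 averaged -0.03 and -0.14 in NY1DD against 0.09 and 0.12 in C57BL/6J. Grin2c, an NMDA receptor subunit of cerebellar granule cells, had 0.11 and 0.13. Grik5, a kainate receptor subunit that raises agonist affinity, was negative on all C57BL/6J arrays at -0.46, -0.18 and -0.62 (mean -0.42, SE 0.16, limma adjusted p = 0.622). In NY1DD it read 0.18, -0.16 and -0.28, with a mean of -0.09. Its relative Grik3 was likewise negative on all C57BL/6J arrays, at -0.17, -0.38 and -0.11.

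The 5 GABA-A receptor subunit genes, which mediate fast inhibition, had means near 0 in both strains. NY1DD means ran from -0.17 (Gabrb2) to 0.06 (Gabra6), and C57BL/6J means from -0.19 (Gabra6) to 0.04 (Gabrb1 and Gabrd). Their spread differed from gene to gene. Gabrb1 was negative on all NY1DD arrays, at -0.11, -0.18 and -0.06, and Gabra6 read 0.12, 0.19 and -0.14. Gabrb2 read 0.27, -0.43 and -0.34 there. The widest NY1DD ranges were those of Gabrd, a subunit of receptors outside the synapse, at -1.07, 0.64 and 0.24, and of Gabra4, at -0.51, 0.68 and -0.46.

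G protein-coupled receptors of glutamate gave 3 positive and 2 negative means in each strain. Grm5, the receptor coupled to phospholipase C, was positive on all 6 arrays, from 0.02 to 0.29, with a mean of 0.13 in each strain (SE 0.13). These values average 2 probes of opposite sign, with means of 0.39 and -0.14 in NY1DD and 0.35 and -0.09 in C57BL/6J. Grm3 read 0.10, 0.35 and 0.50 in NY1DD but 0.55, 0.03 and -0.41 in C57BL/6J. Grm4, a presynaptic receptor, had the most negative NY1DD mean of the transmitter receptors, -0.75 (SE 0.41), from -1.32, 0.58 and -1.5. Its values fell far on both sides of 0, and its C57BL/6J mean was 0.17.

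Of the 2 muscarinic receptor genes, Chrm1, the main receptor of this kind in the forebrain, was negative on 6 of 6 arrays. It read -0.36, -0.17 and -0.05 in NY1DD and -0.15, -0.28 and -0.34 in C57BL/6J, with means of -0.20 (SE 0.13) and -0.26 (SE 0.13), and without NY1DD replicate 1 the former was -0.11. Chrm3 read -0.56, 0.15 and -0.13 in NY1DD and -0.07, -0.16 and -0.25 in C57BL/6J. The Chrm3 values of NY1DD replicate 1 and C57BL/6J replicate 2 rest on 1 of its 2 probes, which was negative on every array. Its other probe was positive wherever it had a value, so the Chrm3 values of different arrays average different probes. Among the monoamine receptors, Htr1d, a serotonin receptor of presynaptic and trigeminal nerve endings, read -0.69, -0.35 and -0.66 in C57BL/6J. The mean was -0.57 (SE 0.22, limma adjusted p = 0.664), while the NY1DD values of -0.69, 0.44 and -0.17 covered both signs. Drd4, a dopamine receptor coupled to inhibition of adenylyl cyclase, read 0.15, 0.51 and 0.01 in NY1DD and 0.0026, -0.17 and -0.38 in C57BL/6J. Adra1b read 0.81, 0.40 and -0.26 in NY1DD, with means of 0.32 and -0.16.

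**Figure D3:**
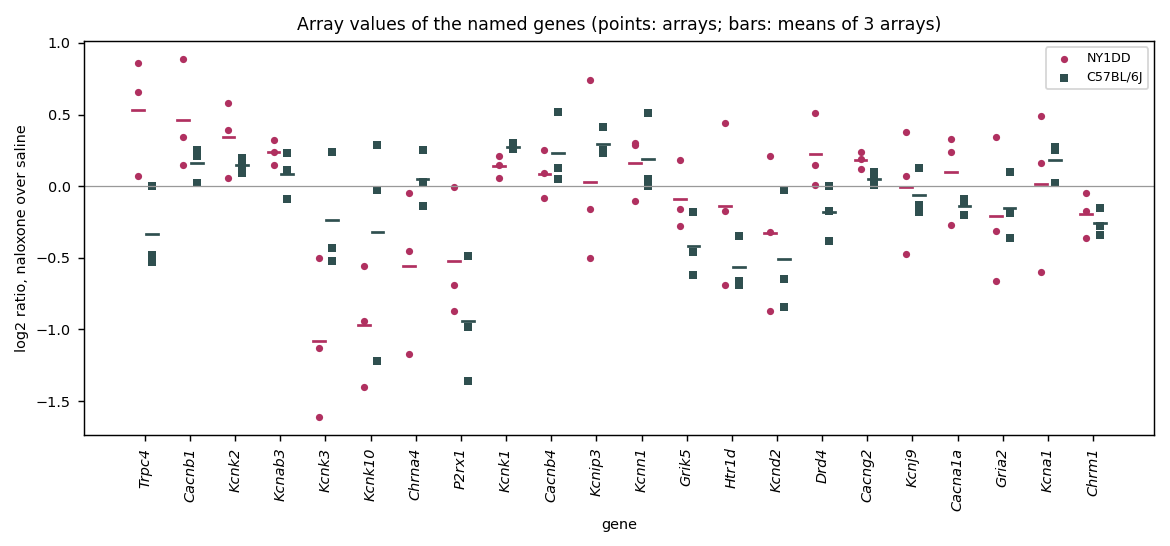
Log2 ratio of naloxone over saline on each array (vertical axis) for the 22 genes named by rule (horizontal axis), with red circles for NY1DD, dark squares for C57BL/6J and a bar at the mean of 3 arrays. The widest gaps between the strains' bars are those of Trpc4, 0.53 against -0.34, and Kcnk3, -1.08 against -0.24. Cacnb1, Kcnk1, Kcnk2 and Cacng2 are positive and P2rx1 and Chrm1 negative on all 6 arrays.

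The subtraction of the strains asks whether the naloxone ratio in NY1DD brain departs from that in C57BL/6J brain. All NY1DD arrays lay above all C57BL/6J arrays for 3 of the 76 genes (3.95%, against 5.23% of all features), Trpc4, Drd4 and Cacng2. They lay below for 1 gene, Kcnk1 (1.32%, against 4.19%). Trpc4 had the largest difference of the 4, 0.87 (SE 0.28, 95% interval 0.22 to 1.52, limma adjusted p = 0.969). Drd4 differed by 0.41 (SE 0.22), Cacng2 by 0.13 (SE 0.17) and Kcnk1 by -0.14 (SE 0.17), each with a limma adjusted p of 0.969. For Drd4 the nearest arrays of the strains were 0.01 and 0.0026, and without NY1DD replicate 2 its difference was 0.27. The Cacng2 difference rests on 1 of its 2 probes (0.14 in NY1DD, -0.12 in C57BL/6J), since the other had a mean of 0.23 in each strain. Kcnk3 had the other unadjusted p under 0.05, with a difference of -0.84 (SE 0.35, 95% interval -1.65 to -0.03) and overlapping arrays. No gene had opposite signs on every array of the strains, a pattern seen in 192 features, 2.09% of those with full values.

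Of the families with more than 1 gene, the largest medians of the difference between strains were 0.43 for the 3 monoamine receptor genes and -0.36 for the 3 nicotinic genes, both over genes whose single differences had SEs of 0.22 to 0.54. The 3 monoamine receptor differences were 0.47 for Adra1b, 0.43 for Htr1d and 0.41 for Drd4. Those of the nicotinic genes were -0.60 for Chrna4, -0.36 for Chrnb2 and 0.01 for Chrnb4. All 3 AMPA receptor differences were negative, from -0.26 to -0.06, with SEs of 0.21 to 0.30. Grm5 differed by -0.0013 (SE 0.18, 95% interval -0.43 to 0.43).

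**Figure D4:**
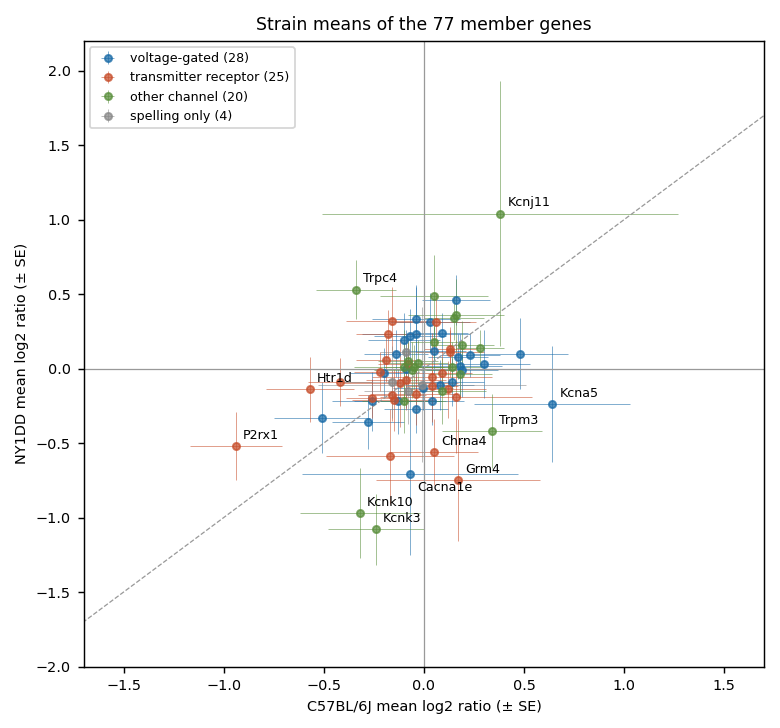
Mean log2 ratio in NY1DD (vertical axis) against that in C57BL/6J (horizontal axis) for the 77 tested genes, with limma standard errors as bars, colours for the groups and a dashed line where both strains are equal. Most genes lie within 0.5 of 0 on both axes; P2rx1 lies at -0.94 and -0.52, Kcnk3 at -0.24 and -1.08, and Kcnj11 carries the widest error bars.

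The average of both strains uses the same 6 arrays and adds no independent measurement. The smallest p belonged to P2rx1, with an average of -0.73 (SE 0.16, limma adjusted p = 0.180) and a negative value on 6 of 6 arrays. Kcnk3 followed with -0.66 (SE 0.17, limma adjusted p = 0.233, 5 of 6 arrays negative) and Kcnk10 with -0.64 (SE 0.21, 5 of 6 arrays negative). Cacnb1 (0.31), Kcnk2 (0.25) and Kcnk1 (0.21) were positive on 6 of 6 arrays, and Kcnip1 (-0.32) and Chrm1 (-0.23) negative on 6 of 6. Kcnd2 had an average of -0.42 with 5 of 6 arrays negative. These are the 9 genes with an unadjusted p under 0.05, and 4 of them encode tandem-pore potassium channels, of which 2 were positive and 2 negative.

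Several genes were measured by more than 1 cDNA probe, which gives a check within the array. Among the 20 such genes, all probes of a gene had the same sign of the strain mean for 5 genes in NY1DD (25%, against 47.1% of 1311 genes) and 4 in C57BL/6J (20.0%, against 44.2%). Genes with exactly 2 probes gave 4 of 14 in NY1DD (28.6%, against 52.7% of 1030) and 3 of 14 in C57BL/6J (21.4%, against 49.7%). The median gap between the highest and the lowest probe of a gene on the same array was 0.50, against 0.39 over all genes with several probes. That gap exceeded the median size of a value of these genes, 0.24.

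The probe means of Cacna1a show what an average over probes can hide. In C57BL/6J its 4 probes had means of 0.29, 0.15, -0.06 and -0.94, the last from -0.53, -1.19 and -1.09, so 1 probe made the mean of the gene negative. In NY1DD that same probe had the highest mean, 0.42. Grm2, a presynaptic glutamate receptor, had probe means of 0.11 and -1.30 in NY1DD, the latter resting on a value of -3.40 on replicate 1. The 2 probes of Chrm3, a muscarinic receptor, had NY1DD means of 0.69 and -0.63, and the negative probe lies in plate column 12. Of the 4 Kcna1 probes, 1 read -1.94 and 2.21 on NY1DD replicates 1 and 3. Other genes whose probes differed in sign in NY1DD were Cacna2d1, Clcn2, Gria3, Grin2c, Grm5, Kcnc2, Kcnc4, Kcnj4, Scn2b, Scn4b and Scn8a. In C57BL/6J they were Cacna2d1, Cacng2, Clcn2, Gabra6, Gabrb2, Gria3, Grm2, Grm5, Kcna2, Kcnj4, Scn2b, Scn4b and Scn8a, beside Cacna1a, Chrm3 and Kcna1. Cacng2 is among them: its 2 probes had C57BL/6J means of different sign although their average was positive on every array.

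**Figure D5:**
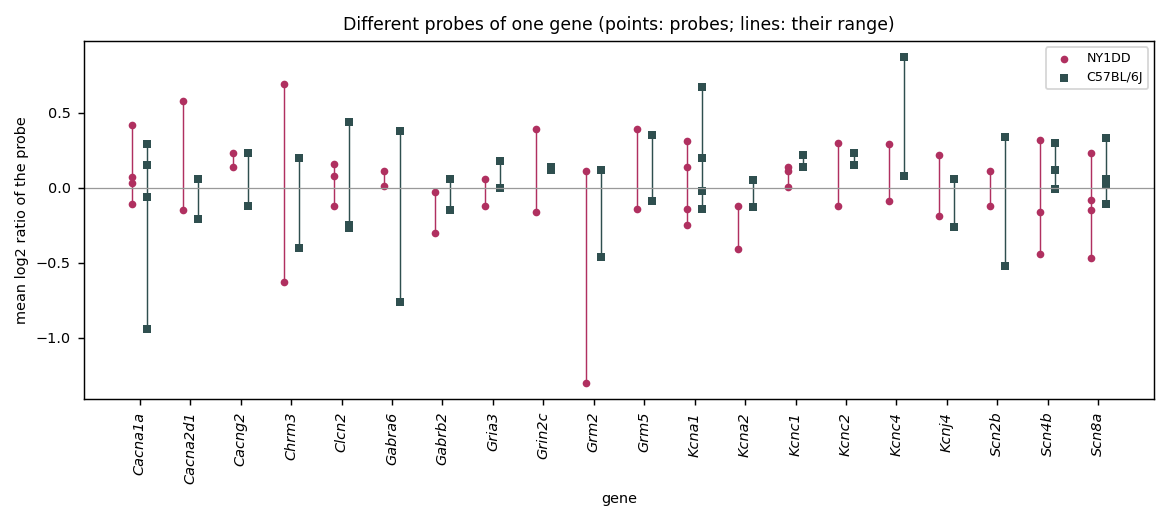
Mean log2 ratio over the arrays of a strain (vertical axis) for each probe of the 20 genes with several probes (horizontal axis), with red circles for NY1DD, dark squares for C57BL/6J and a line joining the probes of a gene. Lines that cross 0 are genes whose probes differ in sign, 15 in NY1DD and 16 in C57BL/6J; the longest are those of Grm2 and Chrm3 in NY1DD and of Cacna1a in C57BL/6J.

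Genes that act with these channels and receptors gave no call either. Of 48 listed scaffold and auxiliary proteins, 30 were measured, with 14 positive and 16 negative means in NY1DD and 19 and 11 in C57BL/6J. At an unadjusted limma p under 0.05, 0 of the 30 were positive and 1 negative in NY1DD, where 8.36% of all features passed. In C57BL/6J 0 were positive and 2 negative, where 6.95% of all features passed. Grip2, Lgi3, Ryr2 and Vdac2 were chosen for mention after their values were seen, for an unadjusted p under 0.05 in a strain. Grip2, which anchors AMPA receptors, had means of -0.36 in NY1DD and -0.63 in C57BL/6J (each SE 0.14), and Lgi3, a secreted synaptic protein, had -0.47 (SE 0.19) in C57BL/6J. Of 34 other receptors and channels outside the name rule, 12 were measured. Ryr2, the calcium release channel of the endoplasmic reticulum, had 0.95 in NY1DD and 0.71 in C57BL/6J (each SE 0.30), and Vdac2, a mitochondrial pore, had 0.37 in C57BL/6J. The smallest limma adjusted p of these named genes was 0.229, for Grip2 in C57BL/6J. Limma called 0 genes of either list.

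Cell type markers were read beside the channel genes. The median of 11 neuron markers ran from -0.003 to 0.21 over the arrays and that of 8 measured astrocyte markers from -0.18 to 0.12. The 7 measured oligodendrocyte markers had array medians from -0.02 to 0.37, the 4 microglial markers from -0.25 to 0.23 and the 5 endothelial markers from -0.21 to 0.55. Astrocyte markers had 1 positive and 7 negative means in NY1DD and 5 and 3 in C57BL/6J. Neuron markers had 8 and 3 in NY1DD and 7 and 4 in C57BL/6J. Oligodendrocyte markers had 5 and 2 in NY1DD and 7 and 0 in C57BL/6J. Microglial markers had 3 and 1 in NY1DD and 1 and 3 in C57BL/6J. Endothelial markers had 2 and 3 in NY1DD and 4 and 1 in C57BL/6J. Limma called 0 of these markers, and their part in the values of the channel and receptor genes was not tested.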

How the data were processed

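The authors deposited a table of natural log ratios of the 2 channels of each array. The base was read from its lower limit, the natural log of a ratio of 0.01. The sources used here name no normalisation, background correction or software, so signal over background is unknown. Of 11532 spots, 30 controls were left out. The rest were put on the log2 scale with limit values as missing. Arrays were median-centred, probes with under 2 values in a strain were dropped, and those sharing a single symbol were averaged into 9685 features.

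All 6 arrays entered 1 linear model with a mean for each strain in limma (version 3.58.1, under R 4.3.3). Tests were two-sided, with Benjamini-Hochberg adjustment and a threshold of 0.05, and the fit was checked on simulated data. SEs and 95% intervals come from this fit, SDs from the arrays.

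The genes and the lists of partners and markers were chosen with earlier results of these data known. Named by rule were, per comparison, up to 4 genes per side with the smallest p among those of the same sign on every array of the strain (for the difference, without overlap), the measured genes of a list of 15 known channels and receptors, and genes whose probes differ in sign. Alternatives covered missing values, centring, scale, probes, wells, the replicate block and each replicate left out.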

Additional observations from a re-analysis of the deposited data

How the results depend on the processing

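Under all 14 alternatives limma called 0 features and 0 channel or receptor genes in each of the 4 comparisons, the replicate block (0 called) included. That block was only a check, since the labels do not say that same-numbered arrays are paired. Deviations of same-numbered arrays correlated at -0.0666, 0.0508 and 0.0197, which cannot settle whether the numbers pair the arrays, because a weak pairing could give such values too. The count of genes with an unadjusted p under 0.05 ran from 3 to 10 in NY1DD and 1 to 4 in C57BL/6J. It ran from 1 to 5 in the difference and 3 to 11 in the average, where the block gave 5. The 10 in NY1DD and the 11 in the average came without NY1DD replicate 2. Shares of all features are not set beside these counts, which are therefore no result about the channel and receptor genes. Of 420 values of the named genes under alternatives, 407 kept their sign and 13 turned it. Most of these results were named for having the same sign on every array of a strain, or for strains without overlap. Leaving out an array cannot turn the sign of such a result, so the count is no measure of stability. The C57BL/6J median of the transmitter receptor genes, -0.09, was -0.07 without median centring, -0.07 with a single probe per gene and -0.12 with the well position correction. The NY1DD difference of receptor and channel medians ran from -0.17 to 0.01 as single replicates were left out.

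Values that turned sign were close to 0 or rested on 1 array or probe. The NY1DD mean of Kcnj9 was 0.02 without centring, 0.05 with the well position correction, and -0.20 to 0.23 as replicates were left out; its C57BL/6J mean ran from -0.15 to 0.0019. Cacna1a with a single probe had -0.11 in NY1DD and 0.29 in C57BL/6J, and -0.02 to 0.28 in NY1DD as replicates were left out. Kcna1 in NY1DD was -0.02 with values required on all 6 arrays, -0.04 with the well position correction, and -0.22 to 0.32 as replicates were left out. Gria2 in NY1DD ran from -0.49 to 0.01, and the strain difference of Cacng2 was -0.0047 with a single probe. Apart from single arrays and probes, whose part is shown by the setting itself, the cause was not tested.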
